A study of Homo sapiens with 6 samples.

Results

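The genes described here encode the route of glucose into the cell and down to pyruvate and lactate: glucose transporters, the enzymes of the 10 glycolytic steps with their isozymes, the enzymes that set fructose 2,6-bisphosphate, lactate dehydrogenase and the lactate carriers, the pyruvate dehydrogenase kinases with their target, and the enzymes that run the route backwards. They were chosen by symbol, step by step, with earlier results of these data known. All 38 were found among the 32943 genes of the deposited count table. Of these, 33 had enough counts for a test and 5 did not (SLC2A2, PFKFB1, LDHB, PCK1 and G6PC1). The labels give the cells as AGS, a line from a human gastric adenocarcinoma. The cells had been transfected by Lipofectamine with a control plasmid or with pcDNA3.1-3xFlag-IGF2BP3, a Flag-tagged expression plasmid for IGF2BP3, and were harvested 48 h later. Each group had 3 libraries. No other genotype or agent separates the groups in the labels, and the labels do not name the control plasmid or say whether the replicates were separate cultures, so each p-value reflects the spread of these libraries alone, which may be technical.

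Glycolysis splits glucose into pyruvate in the cytosol and yields ATP and NADH. Its flow is set mainly at hexokinase, phosphofructokinase and pyruvate kinase, and most steps have several isozymes from separate genes that differ in regulation and in the tissues that use them. Pyruvate is either reduced to lactate, which leaves through monocarboxylate transporters, or oxidised in mitochondria by pyruvate dehydrogenase, which the pyruvate dehydrogenase kinases switch off. Tumour cells are known for high glycolysis with lactate release. IGF2BP3 is an RNA-binding protein that binds mRNAs and affects their stability and translation.

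IGF2BP3 (ENSG00000136231.14; chromosome 7, 23310209 to 23470467, minus strand) was at 90.6, 102 and 100.2 CPM in the controls and at 511, 573 and 664 CPM with IGF2BP3. Its log2 fold change was 2.58 ± 0.08 (SE; edgeR quasi-likelihood adjusted p = 1.28e-08), and the exact permutation p was 0.1, the smallest that 3 against 3 libraries allow. Plasmid transcripts and those of the endogenous gene are counted together. Libraries held 33555366 to 37633587 counts. Control replicate 1 and IGF2BP3 replicate 3 lay farthest from the others of their groups. The label was also checked against marker genes. Of 8 gastric markers 7 were in the table, 5 of these stayed under 20 counts in every library, and only PGC reached a mean of 1 CPM in the controls. The gastric markers summed to 4.27 to 5.88 CPM in the controls and 1.53 to 1.83 CPM with IGF2BP3. All 12 hepatocyte markers were above 1 CPM in the controls, with albumin (ALB) at 1512 ± 46.8 CPM in the controls and 770.1 ± 49.7 CPM with IGF2BP3. Their sum was 4364 to 4603 CPM in the controls and 2633 to 2942 CPM with IGF2BP3, and 12 of 12 fell, with a median log2 fold change of −1.10. Epithelial markers were high in all libraries (sum 9782 to 10255 CPM against 8865 to 10240.1 CPM), and 2 of 5 fell (CDH1, log2 fold change −0.56, and EPCAM, −0.16). In addition, 4 of 5 tested fibroblast markers fell (sum 210.2 to 220.4 CPM against 121 to 135 CPM). LUM made up most of this sum, at 164 ± 7.54 CPM in the controls and 97.2 ± 6.08 CPM with IGF2BP3. Of the 7 fibroblast markers, 3 stayed under 20 counts in every library. Blood and endothelial markers summed to no more than 0.657 and 0.845 CPM in any library. Most markers of the labelled tissue were thus near 0, with PGC at 3.87 CPM in the controls. Hepatocyte markers ranged from 2.42 CPM (APOA1) to 1512 CPM (ALB) in the controls, and all 12 were lower with IGF2BP3. Several genes below are liver isoforms, and the part of this marker shift in their values was not tested. In bulk RNA, fewer cells of a type and less RNA per cell cannot be told apart.

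Levels are given in CPM, counts scaled by edgeR to TMM-adjusted library sizes, with ± for the SD over 3 libraries. Fold changes are IGF2BP3 over control from edgeR's quasi-likelihood fit, with ± for the SE, and a gene is called at a Benjamini-Hochberg adjusted p under 0.05 over all 17747 genes tested. The log2 fold change is abbreviated log2FC. Of the 33 tested genes of the pathway, 20 were called, 6 higher (18.2%) and 14 lower (42.4%). Over all genes tested 37.7% were called, 18.5% higher and 19.2% lower. The pathway's share of higher calls was thus near the background, and its share of lower calls was above it. This background was not matched to the pathway for expression level. Control and IGF2BP3 libraries did not overlap for 24 of the 33 genes (72.7%), against 50.6% of all genes. The median log2 fold change was −0.12 over the pathway and −0.01 over all genes. Changes were mostly modest, with a median size of 0.48 on the log2 scale among the 20 called genes and 0.37 among all called genes, and 9 of the 20 reached a 1.5-fold difference. Tested against a fold of 1.5 itself (edgeR's glmTreat), only SLC2A3 was called. At an unadjusted p under 0.05 that test had 1 gene higher and 3 lower.

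The calls were laid out along the pathway as follows. Of the 17 genes of the 10 glycolytic steps, all tested, 6 rose (HK1, HK2, PFKM, PFKP, ENO1 and ENO2), 6 fell (PFKL, ALDOA, ALDOC, TPI1, ENO3 and PKM) and 5 did not pass (GPI, GAPDH, PGK1, PGAM1 and PKLR). Of the 16 tested genes around these steps, 0 rose, 8 fell (SLC2A3, PFKFB3, PFKFB4, SLC16A3, PDK1, PDK2, PDK3 and FBP1) and 8 did not pass. Their median log2 fold change was −0.38. Among these 16, 2 genes were higher at an unadjusted p under 0.05 in edgeR, DESeq2 called 0 higher and 8 lower, and limma-voom called 0 higher and 8 lower. Beside these counts, 37.7% of all genes tested were called, 18.5% higher and 19.2% lower. Whether the 17 or the 16 genes differed from this background, or from each other, was not tested. The plot of log2 CPM by step and library shows this layout.

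**Figure D1:**
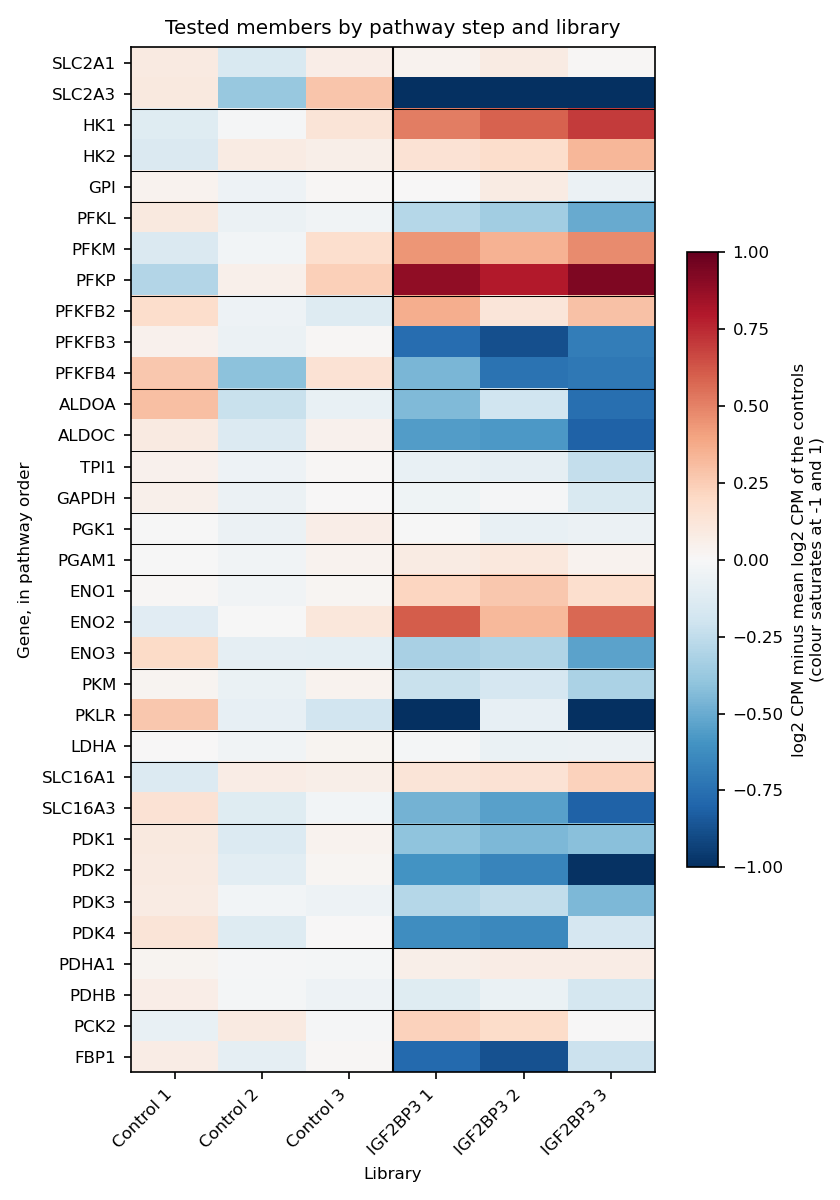
Log2 CPM of each of the 33 tested genes minus its mean in the 3 control libraries, with genes in pathway order in the rows and the 6 libraries in the columns. Red is higher and blue lower than the control mean, and the colour saturates at −1 and 1. PFKM and PFKP are red and PFKL is blue in all 3 IGF2BP3 libraries, and the PDK rows are blue.

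Promoters were looked at because members of the pathway are known targets of hypoxia-inducible factors and of MYC-type factors. RefSeq windows from 250 bases before to 50 after the start (GRCh38.p14) were given for 34 of the 38 genes, with 65 windows in all. They were searched on both strands for ACGTG or GCGTG, the core of the hypoxia response element, and for CACGTG, the E-box, which contains ACGTG. Overlapping matches were counted as 1 site. ACGTG or GCGTG was in 39 of the 65 windows (60.0%) and in 48.4% of all 35116 windows, and CACGTG was in 9 (13.8%) and in 7.26% of all windows. By gene, 29 of 34 had ACGTG or GCGTG in at least 1 window (85.3%), against 52.4% of 27305 genes, which have fewer windows per gene on average. All 6 genes called higher and all 13 called lower with a window had the short motif, as did 8 of the 11 that did not pass, so the motif did not sort the genes by direction. CACGTG was in 1 of 6, 4 of 13 and 4 of 11. The 250 bases before the RefSeq start are shown for the genes with the smallest p in each direction, HK1 and ENO1 among those that rose and PFKFB3 and ALDOC among those that fell. Capitals mark these motifs on either strand, in lines that run 5′ to 3′ along the gene.
HK1 (chr10:69269750-69269999, plus strand): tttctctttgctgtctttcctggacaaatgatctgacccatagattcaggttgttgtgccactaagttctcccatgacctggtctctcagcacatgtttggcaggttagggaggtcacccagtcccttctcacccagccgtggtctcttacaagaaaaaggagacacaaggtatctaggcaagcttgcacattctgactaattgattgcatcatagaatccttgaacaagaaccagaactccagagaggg
ENO1 (chr1:8878687-8878936, minus strand): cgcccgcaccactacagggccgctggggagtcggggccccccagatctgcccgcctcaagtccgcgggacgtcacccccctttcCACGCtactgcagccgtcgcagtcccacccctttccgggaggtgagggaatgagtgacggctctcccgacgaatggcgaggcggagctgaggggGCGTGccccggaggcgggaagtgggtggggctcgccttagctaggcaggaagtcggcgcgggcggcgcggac
PFKFB3 (chr10:6144671-6144920, plus strand): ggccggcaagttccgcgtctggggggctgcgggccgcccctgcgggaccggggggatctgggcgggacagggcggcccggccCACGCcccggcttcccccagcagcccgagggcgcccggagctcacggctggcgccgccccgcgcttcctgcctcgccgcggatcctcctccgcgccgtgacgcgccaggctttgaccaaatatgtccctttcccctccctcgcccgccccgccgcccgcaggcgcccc
ALDOC (chr17:28576896-28577145, minus strand): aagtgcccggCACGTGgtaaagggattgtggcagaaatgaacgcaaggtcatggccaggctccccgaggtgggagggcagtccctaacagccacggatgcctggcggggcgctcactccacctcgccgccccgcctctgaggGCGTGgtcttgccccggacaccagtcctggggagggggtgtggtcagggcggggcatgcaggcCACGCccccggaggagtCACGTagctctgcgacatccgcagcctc
The ALDOC stretch held 4 sites, 1 of them CACGTG, the ENO1 stretch 2 and the PFKFB3 stretch 1. The HK1 stretch is the first listed of 7 windows for that gene and held 0 sites, while 2 of the 7 windows held ACGTG or GCGTG. A match is a run of letters and says nothing about binding in these cells.

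Glucose enters through facilitative transporters. SLC2A1 (ENSG00000117394.24; chromosome 1, 42925375 to 42959176, minus strand) encodes GLUT1, the transporter of most growing cells. Among SLC2A1, SLC2A2 and SLC2A3 it was the most abundant, with 4.64 ± 0.393 FPKM in the controls (the authors' per-length unit) against 0.520 ± 0.115 for SLC2A3. Outside these 3, SLC2A6 and SLC2A8 had more, 5.48 ± 0.272 and 14.55 ± 0.147 FPKM in the controls. Both were called lower, SLC2A6 as given below and SLC2A8 by a small amount without overlap (log2FC −0.19 ± 0.06, edgeR adjusted p = 0.0350). SLC2A1 was at 39.0, 33.0 and 38.5 CPM in the controls and at 37.6, 38.9 and 37.1 CPM with IGF2BP3. The groups overlapped, and it did not pass (log2FC 0.04 ± 0.07, edgeR adjusted p = 0.6940). SLC2A3 (ENSG00000059804.16; chromosome 12, 7919230 to 7936275, minus strand) encodes GLUT3, a transporter with high affinity for glucose. It was at 3.99, 2.87 and 4.52 CPM in the controls and at 1.74, 1.01 and 0.886 CPM with IGF2BP3. Every IGF2BP3 library was below every control, and SLC2A3 fell 3.12-fold (log2FC −1.64 ± 0.25, edgeR adjusted p = 2.93e-04), the largest change of the pathway. It rests on few reads, 142, 96 and 163 counts in the controls and 65, 36 and 33 counts with IGF2BP3. SLC2A14, a close copy of SLC2A3, was at 0.647, 1.02 and 0.721 CPM in the controls and at 0.589, 0.366 and 0.403 CPM with IGF2BP3 and did not pass (log2FC −0.80 ± 0.30, edgeR adjusted p = 0.0560). Reads could be split between the copies, so the SLC2A3 value is uncertain in size. The log2 ratio of SLC2A3 to SLC2A1 counts within a library was −3.29, −3.53 and −3.09 in the controls and −4.43, −5.26 and −5.39 with IGF2BP3, a difference of −1.73 without overlap. SLC2A2, the low-affinity GLUT2 of liver and pancreas, had 0 to 2 counts in each library and was not tested. A count of 0 allows up to 3 counts, 0.0803 to 0.0896 CPM by library, from counting error alone.

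Hexokinase traps glucose as glucose 6-phosphate, and both of its measured genes rose. HK2 (ENSG00000159399.10; chromosome 2, 74833981 to 74893359, plus strand), the inducible isozyme of tumours and muscle, carried most of the step, with 86.8 ± 0.669% in the controls and 83.5 ± 0.269% with IGF2BP3 of the step's summed FPKM. It was at 44.4, 51.9 and 51.0 CPM in the controls and at 54.2, 55.3 and 61.8 CPM with IGF2BP3. The groups did not overlap, and HK2 rose 1.16-fold (log2FC 0.22 ± 0.07, edgeR adjusted p = 0.0284). This small rise depended on single libraries. Without control replicate 1 the edgeR adjusted p was 0.0816, without IGF2BP3 replicate 3 it was 0.102, and without both it was 0.139 with a log2 fold change of 0.09. HK1 (ENSG00000156515.24; chromosome 10, 69269984 to 69401884, plus strand), the housekeeping isozyme that binds mitochondria, was at 7.25, 7.86 and 8.65 CPM in the controls and at 11.2, 11.9 and 12.8 CPM with IGF2BP3. It rose 1.51-fold with no overlap (log2FC 0.60 ± 0.09, edgeR adjusted p = 4.33e-04). The log2 ratio of HK2 to HK1 counts was 2.61, 2.72 and 2.56 in the controls and 2.27, 2.22 and 2.27 with IGF2BP3, a difference of −0.38 without overlap. GPI (ENSG00000105220.17; chromosome 19, 34359480 to 34402413, plus strand), which turns glucose 6-phosphate into fructose 6-phosphate, was at 405, 382 and 398 CPM in the controls and at 396, 418 and 379 CPM with IGF2BP3 and did not pass (log2FC 0.01 ± 0.04, edgeR adjusted p = 0.8804).

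The phosphofructokinase step, the main control point of glycolysis, showed opposite changes among its 3 subunit genes. PFKL (ENSG00000141959.17; chromosome 21, 44300051 to 44327376, plus strand), the liver-type subunit, made up 88.5 ± 1.74% in the controls and 80.5 ± 1.69% with IGF2BP3 of the step's FPKM. It was at 98.5, 88.5 and 89.7 CPM in the controls and at 75.6, 72.4 and 64.9 CPM with IGF2BP3. All IGF2BP3 libraries were below all controls, and PFKL fell 1.30-fold (log2FC −0.38 ± 0.06, edgeR adjusted p = 6.76e-04). PFKM (ENSG00000152556.17; chromosome 12, 48105139 to 48146404, plus strand), the muscle-type subunit, was at 7.14, 7.74 and 8.87 CPM in the controls and at 10.7, 10.0 and 10.9 CPM with IGF2BP3. It rose 1.33-fold with no overlap (log2FC 0.42 ± 0.10, edgeR adjusted p = 0.0057). PFKM shares 628 exonic bases with SENP1 on the opposite strand, and whether strand was used in counting is not stated in the sources used here, so its value is uncertain. PFKP (ENSG00000067057.18; chromosome 10, 3066333 to 3137712, plus strand), the platelet-type subunit, was low, at 1.55, 1.97 and 2.25 CPM in the controls and at 3.51, 3.30 and 3.63 CPM with IGF2BP3. It rose 1.81-fold with no overlap (log2FC 0.85 ± 0.16, edgeR adjusted p = 0.0014). Within libraries the log2 ratio of PFKM to PFKL counts was −3.79, −3.52 and −3.34 in the controls and −2.82, −2.85 and −2.57 with IGF2BP3, a difference of 0.80. That of PFKP to PFKL was −5.99, −5.49 and −5.32 in the controls and −4.43, −4.46 and −4.16 with IGF2BP3, a difference of 1.25. In neither ratio did the groups overlap. PFKL remained the most abundant subunit per length in both groups, and PFKM went from 9.40 ± 1.26% to 14.9 ± 1.30% of the step's FPKM.

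Fructose 2,6-bisphosphate, the strongest activator of phosphofructokinase, is made and removed by the bifunctional PFKFB enzymes. PFKFB3 (ENSG00000170525.21; chromosome 10, 6144934 to 6254644, plus strand), the form whose kinase activity far exceeds its phosphatase activity, was at 23.2, 21.6 and 22.7 CPM in the controls and at 13.3, 12.3 and 13.9 CPM with IGF2BP3. The groups were far apart, and PFKFB3 fell 1.71-fold (log2FC −0.78 ± 0.07, edgeR adjusted p = 1.16e-05), the smallest p of the pathway. PFKFB4 (ENSG00000114268.12; chromosome 3, 48517684 to 48562015, minus strand) was at 12.3, 7.68 and 11.3 CPM in the controls and at 7.44, 6.11 and 6.20 CPM with IGF2BP3. It fell 1.58-fold, with control replicate 2 only just above the highest IGF2BP3 library (log2FC −0.66 ± 0.15, edgeR adjusted p = 0.0053). PFKFB2 (ENSG00000123836.15; chromosome 1, 207034366 to 207081024, plus strand), the heart-type form, was at 11.4, 9.71 and 9.18 CPM in the controls and at 12.9, 10.9 and 12.3 CPM with IGF2BP3. The groups overlapped, and it did not pass (log2FC 0.26 ± 0.10, edgeR adjusted p = 0.0634), although it was called without control replicate 1 (edgeR adjusted p = 0.0121) or without IGF2BP3 replicate 2 (edgeR adjusted p = 0.0406). It shares 315 exonic bases with YOD1 on the opposite strand and is uncertain. The log2 ratio of PFKFB2 to PFKFB3 counts was −1.03, −1.16 and −1.31 in the controls and −0.04, −0.17 and −0.17 with IGF2BP3, a difference of 1.04 without overlap. In FPKM, PFKFB3 held 57.6 ± 3.40% in the controls and 48.2 ± 2.12% with IGF2BP3 of the 4 genes' sum, and PFKFB2 15.4 ± 1.42% in the controls and 26.5 ± 0.596% with IGF2BP3. PFKFB1, the liver form, had 2 to 5 counts in each library and was not tested.

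Aldolase cleaves fructose 1,6-bisphosphate. ALDOC (ENSG00000109107.14; chromosome 17, 28573115 to 28577264, minus strand), best known from brain, was at 54.2, 46.4 and 52.6 CPM in the controls and at 34.6, 34.2 and 29.1 CPM with IGF2BP3. It fell 1.57-fold with no overlap (log2FC −0.65 ± 0.08, edgeR adjusted p = 6.57e-05). The row of ALDOA (ENSG00000149925.22; chromosome 16, 30064164 to 30070457, plus strand), the ubiquitous isozyme, is small beside that of a locus that overlaps it. This protein-coding locus on the same strand, CTD-2515O10.6 (ENSG00000285043.3, AC093512.2 in GENCODE; chromosome 16, 30053090 to 30070420), shares 1657 bases with it, 42.3% of ALDOA's exonic bases. That locus had a mean of 44457 counts per library and the ALDOA row 227.5. How the counting divided reads between them is not known from the sources used here, and no order of ALDOA against ALDOC is drawn from the values. The ALDOA row was at 8.97, 6.24 and 6.93 CPM in the controls and at 5.38, 6.34 and 4.32 CPM with IGF2BP3. Its groups overlapped, and it was called lower (log2FC −0.47 ± 0.16, edgeR adjusted p = 0.0357), but the call ended without control replicate 1, control replicate 3, IGF2BP3 replicate 1 or IGF2BP3 replicate 3 (edgeR adjusted p = 0.118, 0.0508, 0.0875 and 0.141). The overlapping locus was at 1357, 1242 and 1309.8 CPM in the controls and at 1203, 1254 and 1078 CPM with IGF2BP3, also with overlap (log2FC −0.15 ± 0.05, edgeR adjusted p = 0.0477). With both rows summed, a choice made after the values were seen, the log2 fold change was −0.15 (edgeR adjusted p = 0.0467).

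The middle of the pathway, which the abundant triose enzymes carry, had small differences between the groups. TPI1 (ENSG00000111669.15; chromosome 12, 6867119 to 6870948, plus strand) interconverts the triose phosphates and was at 1382, 1297 and 1351 CPM in the controls and at 1276, 1259 and 1139 CPM with IGF2BP3. It fell 1.10-fold without overlap (log2FC −0.13 ± 0.05, edgeR adjusted p = 0.0356). The call ended without control replicate 1, control replicate 3 or IGF2BP3 replicate 3 (edgeR adjusted p = 0.0839, 0.103 and 0.0583) and with DESeq2 (adjusted p = 0.0546). GAPDH (ENSG00000111640.15; chromosome 12, 6533927 to 6538374, plus strand), which produces NADH, had the highest FPKM of the pathway, 1553 in the controls. It was at 4618, 4294 and 4489 CPM in the controls and at 4323, 4419 and 4013 CPM with IGF2BP3. The groups overlapped, and it did not pass (log2FC −0.07 ± 0.04, edgeR adjusted p = 0.1953). An antisense gene in its exons, RP5-940J5.9, had 5.22% of its mean count. PGK1 (ENSG00000102144.15; chromosome X, 77910739 to 78129296, plus strand), which makes ATP, was at 442, 427 and 464 CPM in the controls and at 444, 423 and 426 CPM with IGF2BP3, also with overlap (log2FC −0.04 ± 0.04, edgeR adjusted p = 0.4263). PGAM1 (ENSG00000171314.9; chromosome 10, 97426160 to 97433441, plus strand), the mutase, was at 262, 256 and 268 CPM in the controls and at 278, 282 and 269 CPM with IGF2BP3. Its libraries did not overlap, yet the difference did not pass (log2FC 0.08 ± 0.04, edgeR adjusted p = 0.1565).

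Enolase makes phosphoenolpyruvate, and its 3 genes moved in opposite directions. ENO1 (ENSG00000074800.16; chromosome 1, 8861000 to 8879250, minus strand), the ubiquitous form, made up 95.7 ± 0.371% in the controls and 96.9 ± 0.133% with IGF2BP3 of the step's FPKM. It was at 2226, 2147 and 2235 CPM in the controls and at 2559, 2655 and 2471 CPM with IGF2BP3. Every IGF2BP3 library was above every control, and ENO1 rose 1.16-fold (log2FC 0.22 ± 0.04, edgeR adjusted p = 5.38e-04). ENO2 (ENSG00000111674.9; chromosome 12, 6913745 to 6923698, plus strand), the neuronal form, was at 7.73, 8.33 and 9.01 CPM in the controls and at 12.7, 10.4 and 12.4 CPM with IGF2BP3. It rose 1.42-fold without overlap (log2FC 0.50 ± 0.10, edgeR adjusted p = 0.0021). ENO3 (ENSG00000108515.18; chromosome 17, 4948092 to 4957131, plus strand), the muscle form, was at 82.4, 67.9 and 67.4 CPM in the controls and at 57.7, 58.6 and 49.8 CPM with IGF2BP3. It fell 1.31-fold without overlap (log2FC −0.39 ± 0.08, edgeR adjusted p = 0.0032). ENO3 shares 111 exonic bases with PFN1 on the opposite strand, which had a mean of 59914 counts against 2288 for ENO3, and it is uncertain for the same reason as PFKM. The log2 ratio of ENO3 to ENO1 counts was −4.76, −4.98 and −5.05 in the controls and −5.47, −5.50 and −5.63 with IGF2BP3, a difference of −0.60 without overlap. For ENO2 to ENO1 the difference was 0.28, with overlap (exact permutation p = 0.2).

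Pyruvate kinase closes glycolysis. PKM (ENSG00000067225.19; chromosome 15, 72199029 to 72231822, minus strand) encodes both the M1 and the M2 form by alternative splicing, which counts per gene cannot separate. It was at 1217, 1142 and 1227 CPM in the controls and at 1024, 1064 and 958 CPM with IGF2BP3. The groups did not overlap, and PKM fell 1.18-fold (log2FC −0.24 ± 0.04, edgeR adjusted p = 0.0014). PKLR (ENSG00000143627.19; chromosome 1, 155289293 to 155301438, minus strand), the liver and red cell gene, was at 0.647, 0.508 and 0.471 CPM in the controls and at 0.187, 0.507 and 0.269 CPM with IGF2BP3, with overlap (log2FC −0.76 ± 0.38, edgeR adjusted p = 0.1338). It shares 556 exonic bases with HCN3 on the opposite strand and is uncertain. Without IGF2BP3 replicate 2 its log2 fold change was −1.24 (edgeR adjusted p = 0.0388).

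**Figure D2:**
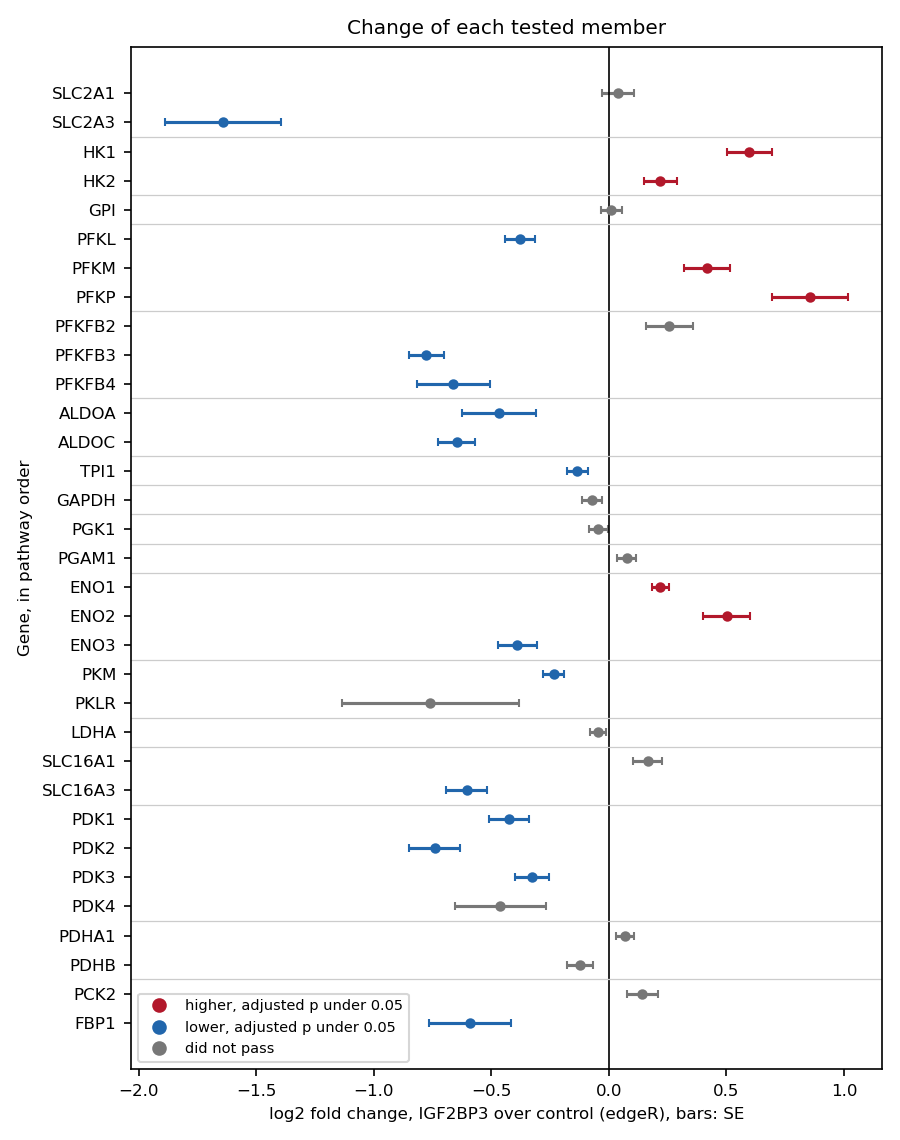
Log2 fold change of IGF2BP3 over control for the 33 tested genes, in pathway order from top to bottom. Points are edgeR estimates, bars are 1 SE on each side, and colour gives the call at an adjusted p under 0.05. Hexokinase, PFKM, PFKP, ENO1 and ENO2 lie to the right of 0, and SLC2A3 lies farthest left at −1.64.

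Lactate dehydrogenase came almost entirely from LDHA (ENSG00000134333.14; chromosome 11, 18394388 to 18408425, plus strand), which favours lactate formation. LDHA was at 1756, 1709 and 1781 CPM in the controls and at 1723, 1672 and 1683 CPM with IGF2BP3. The groups overlapped, and it did not pass (log2FC −0.05 ± 0.03, edgeR adjusted p = 0.2858). LDHB, the isozyme that favours pyruvate, had 0, 0 and 1 counts in the controls and 1, 0 and 0 counts with IGF2BP3. So LDHB was at or near 0 in all 6 libraries, while LDHA had 241 FPKM in the controls. SLC16A3 (ENSG00000141526.18; chromosome 17, 82228397 to 82261129, plus strand) encodes MCT4, the exporter of lactate from glycolytic cells. It was at 103, 85.1 and 90.7 CPM in the controls and at 66.6, 63.5 and 52.9 CPM with IGF2BP3. It fell 1.52-fold without overlap (log2FC −0.61 ± 0.09, edgeR adjusted p = 2.04e-04). It shares 482 exonic bases with CSNK1D on the opposite strand and is uncertain to that extent. SLC16A1 (ENSG00000155380.13; chromosome 1, 112911847 to 112957013, minus strand), which encodes MCT1, a carrier for import and export, was at 52.5, 60.7 and 60.2 CPM in the controls and at 63.0, 63.6 and 67.7 CPM with IGF2BP3. The groups did not overlap, but the difference did not pass (log2FC 0.16 ± 0.06, edgeR adjusted p = 0.0557). Without control replicate 2 it was called higher (edgeR adjusted p = 0.0493). The log2 ratio of SLC16A3 to SLC16A1 counts was 0.96, 0.49 and 0.59 in the controls and 0.08, −0.0019 and −0.36 with IGF2BP3, a difference of −0.77 without overlap. Per length, SLC16A3 held 52.4 ± 4.31% in the controls and 39.2 ± 3.81% with IGF2BP3 of the pair's FPKM. In FPKM SLC16A3 was above SLC16A1 in control replicates 1 and 3 (9.01 against 6.72, and 8.33 against 8.04), and below it in control replicate 2 (7.74 against 8.03) and in all 3 IGF2BP3 libraries.

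Pyruvate dehydrogenase kinases hold pyruvate out of the mitochondrial cycle. Of the 4 genes, 3 fell and PDK4 did not pass. PDK2 (ENSG00000005882.12; chromosome 17, 50094737 to 50112152, plus strand), the most abundant of them per length in the controls, was at 14.5, 12.7 and 13.8 CPM in the controls and at 9.02, 8.62 and 6.85 CPM with IGF2BP3. It fell 1.67-fold without overlap (log2FC −0.74 ± 0.11, edgeR adjusted p = 2.23e-04). It shares 2113 exonic bases with SAMD14 on the opposite strand, which had a mean of 21.5 counts against 389 for PDK2. PDK1 (ENSG00000152256.14; chromosome 2, 172555373 to 172608669, plus strand) was at 14.2, 12.1 and 13.6 CPM in the controls and at 10.1, 9.74 and 9.94 CPM with IGF2BP3. It fell 1.34-fold without overlap (log2FC −0.43 ± 0.08, edgeR adjusted p = 0.0020). PDK3 (ENSG00000067992.16; chromosome X, 24465221 to 24541862, plus strand) was at 27.8, 25.8 and 25.3 CPM in the controls and at 21.6, 22.1 and 19.3 CPM with IGF2BP3. It fell 1.25-fold without overlap (log2FC −0.33 ± 0.07, edgeR adjusted p = 0.0039). PDK4 (ENSG00000004799.8; chromosome 7, 95583499 to 95596491, minus strand), the kinase induced by fasting, was at 2.11, 1.76 and 1.94 CPM in the controls and at 1.26, 1.24 and 1.72 CPM with IGF2BP3. Its groups did not overlap, and it did not pass (log2FC −0.46 ± 0.19, edgeR adjusted p = 0.0790), but it was called lower without IGF2BP3 replicate 3 (edgeR adjusted p = 0.0351). The log2 ratio of PDK2 to PDK3 counts was −0.94, −1.03 and −0.88 in the controls and −1.26, −1.36 and −1.49 with IGF2BP3, a difference of −0.42 without overlap. For PDK1 to PDK3 and PDK4 to PDK3 the differences were −0.09 and −0.15, both with overlap. The target of these kinases is the E1 component. PDHA1 (ENSG00000131828.14; chromosome X, 19343893 to 19361705, plus strand), its phosphorylated subunit, was at 278, 272 and 269.5 CPM in the controls and at 284, 287 and 287 CPM with IGF2BP3 (log2FC 0.07 ± 0.04, edgeR adjusted p = 0.1728). PDHB (ENSG00000168291.13; chromosome 3, 58427630 to 58433857, minus strand), the partner subunit, was at 58.8, 55.3 and 53.9 CPM in the controls and at 51.4, 53.3 and 49.6 CPM with IGF2BP3 (log2FC −0.12 ± 0.05, edgeR adjusted p = 0.0929). Neither passed, although the groups overlapped for neither gene.

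Of the 4 pathway genes that reverse glycolysis, only FBP1 was called. Outside these 4, PC, given below, was called lower. So was G6PC3, another glucose-6-phosphatase gene, named after its value was seen (log2FC −0.21 ± 0.07, edgeR adjusted p = 0.0257). In the neighbouring list of gluconeogenesis and glucose-6-phosphatase, 1 gene rose and 4 fell. FBP1 (ENSG00000165140.12; chromosome 9, 94603133 to 94640249, minus strand), which removes a phosphate from fructose 1,6-bisphosphate in liver and kidney, was low, at 3.91, 3.49 and 3.74 CPM in the controls and at 2.17, 2.03 and 3.20 CPM with IGF2BP3. It fell 1.51-fold without overlap (log2FC −0.59 ± 0.18, edgeR adjusted p = 0.0191). IGF2BP3 replicate 3 lay closer to the controls than the other IGF2BP3 libraries, and without IGF2BP3 replicate 1 or 2 the edgeR adjusted p was 0.0782 and 0.0812. FBP1 shares 283 exonic bases with PCAT7 on the opposite strand and is uncertain. The 12 hepatocyte markers were lower in the same libraries, and their part in this fall was not tested. PCK2 (ENSG00000100889.12; chromosome 14, 24094053 to 24110598, plus strand), the mitochondrial phosphoenolpyruvate carboxykinase, was at 70.5, 79.0 and 74.0 CPM in the controls and at 87.3, 84.6 and 74.7 CPM with IGF2BP3, with overlap (log2FC 0.14 ± 0.07, edgeR adjusted p = 0.1078). Without IGF2BP3 replicate 3 it was called higher (log2 fold change 0.21, edgeR adjusted p = 0.0154). PCK1, the cytosolic form of liver, had 5, 3 and 4 counts in the controls and 1, 0 and 1 counts with IGF2BP3. G6PC1, the glucose-6-phosphatase of liver, had 13, 7 and 9 counts in the controls and 7, 2 and 8 counts with IGF2BP3. Neither was tested.

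**Figure D3:**
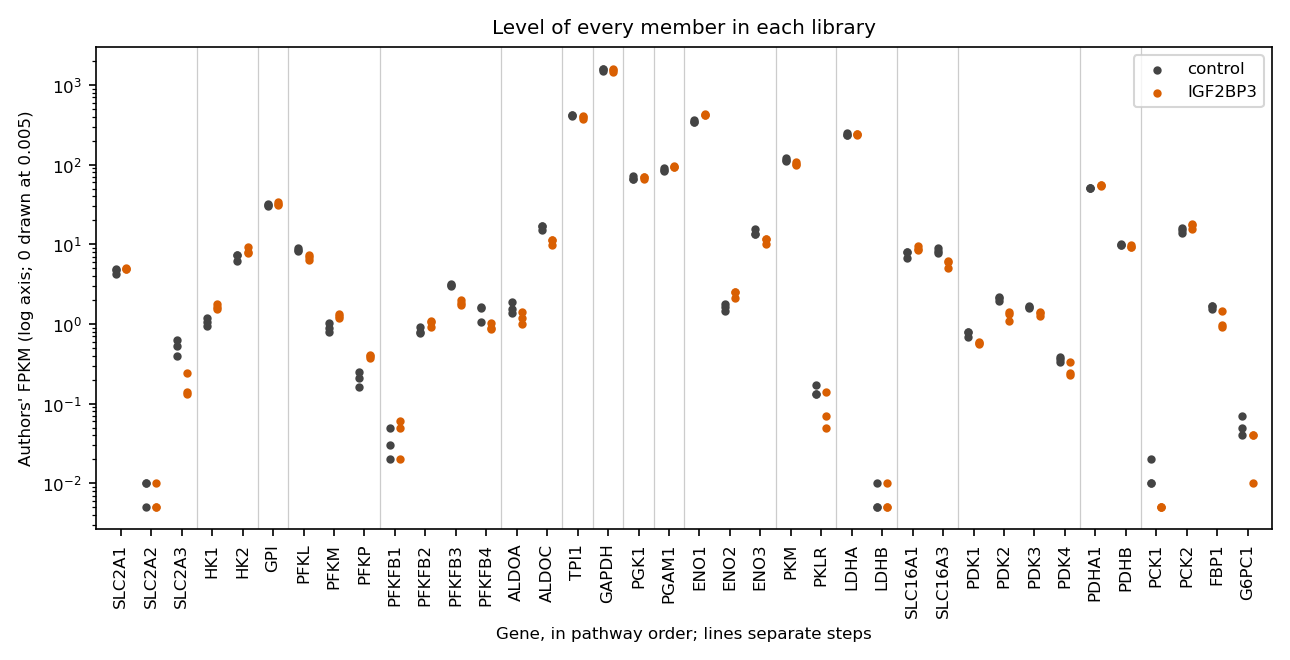
The authors' FPKM of all 38 genes in each of the 6 libraries on a log axis, in pathway order, with control libraries in grey and IGF2BP3 libraries in orange. Values of 0 are drawn at 0.005. GAPDH lies highest with a control mean of 1553, followed by TPI1, ENO1 and LDHA in the controls and by ENO1, TPI1 and LDHA with IGF2BP3, and 5 genes stay near 0.

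Ratios of 2 genes of a step within a library do not depend on how libraries are scaled. The pairs were isozymes, subunit isoforms or carriers of 1 family, other than PDHA1 to PDHB, which are partner subunits of 1 enzyme. Of 16 pairs, 14 had at least 10 counts for both genes in every library, and LDHB to LDHA and PCK2 to PCK1 did not. The groups did not overlap for 9 of the 14 pairs, beside 50.6% of all single genes in CPM. The same share over all gene ratios was not computed. Each of the 9 had the smallest possible exact permutation p of 0.1, two-sided, or 0.156 after Benjamini-Hochberg adjustment over the 14, so the design cannot take any of them past 0.05. Beside the 8 pairs given above, this held for PDHA1 to PDHB (difference 0.19). The groups overlapped for 5 pairs. Of these, PFKFB4 to PFKFB3 differed by 0.14 (exact permutation p = 0.6) and ALDOC to ALDOA by −0.18 (exact permutation p = 0.3), or by −0.50 when the overlapping locus was added to ALDOA.

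**Figure D4:**
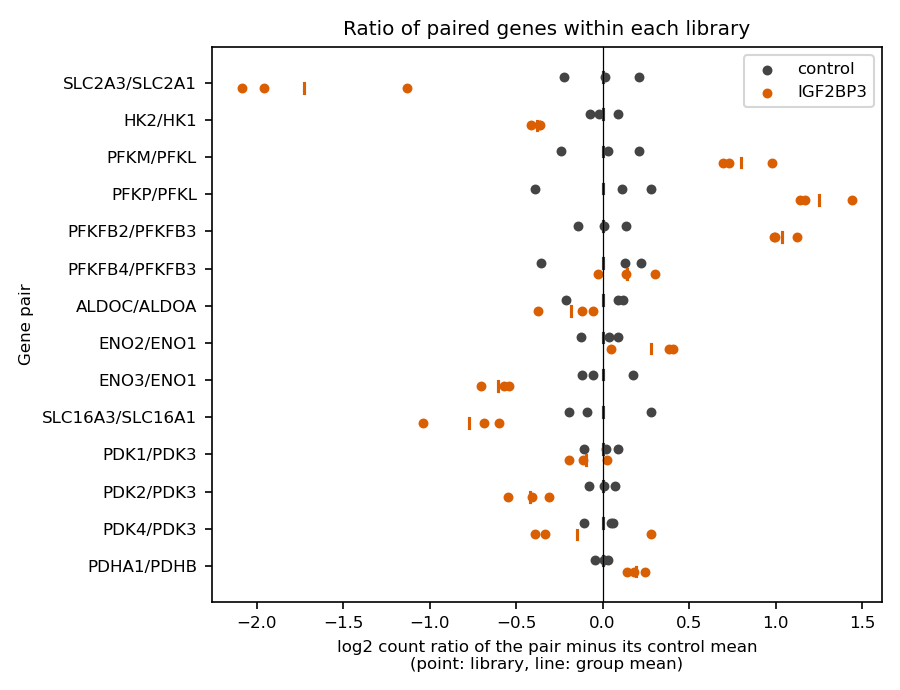
Log2 count ratio of each of the 14 pairs in each library minus the pair's control mean. Points are libraries, short lines are group means, grey is control and orange is IGF2BP3. PFKM to PFKL, PFKP to PFKL and PFKFB2 to PFKFB3 lie to the right of all controls, and SLC2A3 to SLC2A1, ENO3 to ENO1 and SLC16A3 to SLC16A1 to the left.

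As a whole, the 17 genes of the 10 steps took 1.09%, 1.02% and 1.07% of all gene counts in the controls and 1.05%, 1.07% and 1.01% with IGF2BP3. The ranges overlapped, with means of 1.06 ± 0.034% and 1.04 ± 0.033%. GAPDH alone was 0.446 ± 0.017% and 0.425 ± 0.016%, so the sum is weighted towards it. The difference of the totals was smaller than their SD. These totals leave out the locus that overlaps ALDOA. With it added, the means were 1.19 ± 0.040% in the controls and 1.16 ± 0.041% with IGF2BP3, a difference again below the SD.

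The neighbouring pathways were counted from lists of 104 further genes, of which 102 were in the table and 84 could be tested. In them 15 rose and 26 fell (48.8% called, against 37.7% of all genes), with a median log2 fold change of −0.10. Among 13 other genes of glucose transport and phosphorylation 0 rose and 5 fell (38.5% called, near the share of all genes). None was higher at an unadjusted p under 0.05 in edgeR, and DESeq2 and limma-voom each called 0 higher and 5 lower. SLC2A10, the transporter GLUT10, fell from 4.87 ± 0.702 to 1.92 ± 0.363 CPM (log2FC −1.34 ± 0.17, edgeR adjusted p = 9.15e-05). SLC2A6 fell from 23.2 ± 0.616 to 19.7 ± 0.863 CPM (log2FC −0.24 ± 0.07, edgeR adjusted p = 0.0132), a call that ended without control replicate 3 (edgeR adjusted p = 0.0588). GCKR, the liver regulator of glucokinase, fell from 1.16 ± 0.394 to 0.546 ± 0.0559 CPM (log2FC −1.08 ± 0.30, edgeR adjusted p = 0.0141), a call that ended without control replicate 1 or IGF2BP3 replicate 3 (edgeR adjusted p = 0.0534 and 0.0525). Of 6 other isozymes and related enzymes of the steps 1 rose and 0 fell (16.7% called). It was TIGAR, which lowers fructose 2,6-bisphosphate, from 16.0 ± 0.719 to 20.5 ± 2.24 CPM (log2FC 0.36 ± 0.09, edgeR adjusted p = 0.0058). The lactate carrier gene SLC16A7 (log2 fold change −0.23) and BPGM (0.13) did not pass. DESeq2 called SLC16A7 lower (adjusted p = 0.0475), as did edgeR without control replicate 1 (adjusted p = 3.05e-04).

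Of 13 genes of pyruvate entry to mitochondria 4 rose and 4 fell (61.5% called, against 37.7% of all genes). PC, pyruvate carboxylase, which feeds pyruvate into oxaloacetate, was at 91.1, 81.2 and 89.2 CPM in the controls and at 42.3, 44.7 and 35.5 CPM with IGF2BP3. It fell 2.13-fold (log2FC −1.09 ± 0.08, edgeR adjusted p = 2.33e-06). MPC2, a subunit of the mitochondrial pyruvate carrier, fell from 110.3 ± 3.07 to 87.8 ± 3.99 CPM (log2FC −0.33 ± 0.05, edgeR adjusted p = 2.95e-04). The malic enzyme gene ME2 rose from 25.3 ± 2.39 to 33.8 ± 0.971 CPM (log2FC 0.42 ± 0.07, edgeR adjusted p = 8.20e-04). Of 7 genes of gluconeogenesis and glucose-6-phosphatase 1 rose and 4 fell (71.4% called). SLC37A4, the glucose 6-phosphate transporter of the endoplasmic reticulum, fell from 29.4 ± 2.36 to 16.9 ± 1.54 CPM (log2FC −0.80 ± 0.08, edgeR adjusted p = 2.22e-05). The transaminase genes GOT1 and GOT2, cytosolic and mitochondrial, had log2 fold changes of −0.22 ± 0.05 and 0.17 ± 0.04, both called.

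In the pentose phosphate pathway, which branches off at glucose 6-phosphate, 2 of 10 genes rose and 4 fell (60.0% called, against 37.7% of all genes). PGD, which releases carbon dioxide and NADPH, fell from 321 ± 9.39 to 231 ± 14.6 CPM (log2FC −0.47 ± 0.05, edgeR adjusted p = 2.28e-05), and TALDO1, transaldolase, had a log2 fold change of −0.26 ± 0.05. RPIA, which makes ribose 5-phosphate, rose from 20.6 ± 0.782 to 30.1 ± 1.58 CPM (log2FC 0.55 ± 0.07, edgeR adjusted p = 6.35e-05). Of 16 glycogen genes 3 rose and 4 fell (43.8% called, near the share of all genes). GYG2, the liver glycogenin that primes glycogen, fell from 41.1 ± 1.80 to 22.4 ± 2.67 CPM (log2FC −0.88 ± 0.08, edgeR adjusted p = 1.06e-05). The phosphorylase kinase subunit gene PHKA2 (−0.54 ± 0.06) and UGP2, which makes UDP-glucose (−0.30 ± 0.04), fell too. Of 19 regulators 4 rose and 5 fell (47.4% called). TXNIP, an arrestin that lowers glucose uptake and is induced by glucose, rose from 47.7 ± 4.31 to 132 ± 16.0 CPM (log2FC 1.47 ± 0.09, edgeR adjusted p = 7.40e-07). Its relative ARRDC4 was at 4.50, 4.63 and 4.38 CPM in the controls and at 8.70, 9.18 and 10.7 CPM with IGF2BP3. It rose 2.12-fold (log2FC 1.08 ± 0.11, edgeR adjusted p = 1.78e-05). MYC, an activator of many glycolytic genes, rose from 67.5 ± 2.01 to 121 ± 9.19 CPM (log2FC 0.84 ± 0.06, edgeR adjusted p = 2.14e-06). HIF1A, the oxygen-regulated subunit of hypoxia-inducible factor, named after its value was seen, had a log2 fold change of −0.20 ± 0.07 and was called lower with overlapping groups (edgeR adjusted p = 0.0479). EGLN1, a prolyl hydroxylase that marks it for degradation and also named after its value was seen, rose (log2 fold change 0.27, edgeR adjusted p = 0.0026). EGLN3, another prolyl hydroxylase gene of the list, fell without overlap (log2FC −0.34 ± 0.055, edgeR adjusted p = 4.64e-04). EPAS1, ARNT and VHL of the same list did not pass.

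Processed pseudogenes of these enzymes took few reads. Of the 42 in the table, none had more than 47 counts in any library. Summed by parent they reached at most 0.26% of the parent's counts, except for SLC2A3, where they reached 8.33%, and LDHB, whose 1 pseudogene had 0 to 4 counts in each library against 0 or 1 for LDHB itself.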

How the data were processed

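PolyA RNA sequencing was done in 3 control and 3 IGF2BP3 libraries with a kit that marks strand and 150 nt paired-end reads, per the labels' protocols. HISAT2, DESeq2 and GRCh38 were used, per the submitters' processing notes, without versions. Neither the counter nor its strand setting or annotation release is stated in the sources used here, and overlapping genes, antisense genes and near-identical copies are uncertain. The authors deposited raw counts per gene and FPKM, a unit per gene length and library total. No source used here states the lengths and totals behind the FPKM, which served for the order of genes within libraries, for each isozyme's percent of its step, and for an alternative test. Those percentages rest on the unstated lengths.

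The test used edgeR 4.0.16 (R 4.3.3) on the counts: filterByExpr (minimum count 10, minimum total 15), TMM scaling, quasi-likelihood F test without other terms, Benjamini-Hochberg adjusted p under 0.05. The fit ran on the whole table, and the steps were tested on simulated data with known changes. Isozyme ratios were compared by two-sided exact permutation tests over libraries. No libraries agreed within sampling noise (chi-square per gene of 2.04 or more for every pair). Exon overlaps and gene positions came from GENCODE 29 (GRCh38), and promoters from RefSeq (GRCh38.p14).

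Every pathway gene is named. Values per library are given for genes past the threshold without overlap and for the most abundant isozyme of each step, and the 3 genes with the smallest p are named from each neighbouring list. The genes and lists were chosen with earlier results of these data known. Alternatives were other scalings, other filters, a block for the replicate number, leaving out each library, control replicate 1 and IGF2BP3 replicate 3 left out together, DESeq2 1.42.0, limma-voom and limma 3.58.1 on log2 of FPKM plus 1 or plus 0.1, an adjusted p under 0.01 and a tested fold of 1.5. Summing ALDOA with the locus that overlaps it was added after seeing the data.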

Additional observations from a re-analysis of the deposited data

How the results depend on the processing

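Of the 20 called pathway genes, 0 changed direction under any alternative, and 15 kept their call under every alternative run other than the tested fold of 1.5. The other 5 were HK2, ALDOA, TPI1, FBP1 and PDK3. HK2 also missed the threshold under upper quartile scaling (edgeR adjusted p = 0.0598), and PDK3 with limma on log2 FPKM plus 0.1 (adjusted p = 0.0505). With each library left out in turn the calls ranged from 6 to 7 higher and 12 to 14 lower. Over all genes, 5530 to 6107 were called in those fits, against 6698 of 17747 in the main test. Without control replicate 1 and IGF2BP3 replicate 3 together 9 pathway genes were higher and 13 lower, with 6936 of all genes called. Without a filter on low counts they were 9 and 14. That setting tested all 38 pathway genes and called 7126 of 32943 genes, so its counts are not on the same base. An adjusted p under 0.01 left 4293 calls among all genes and 27 among the neighbouring pathway genes. Tested against a fold of 1.5, edgeR called 367 of all genes (53 higher and 314 lower), 0 pathway genes higher (1 at an unadjusted p under 0.05), 1 lower and 6 neighbouring genes. The split over all genes, 3288 higher and 3410 lower, was 2577 and 3949 with upper quartile scaling, 3756 and 3370 without a filter, 3416 and 2453 with limma on log2 FPKM plus 1, and 3439 and 2468 with FPKM plus 0.1. The cause was not tested. Deviations of samples with the same replicate number had correlations from −0.04 to 0.09, and those with different numbers from −0.14 to 0.08. With 3 libraries a group, these values cannot show whether the numbers pair the libraries. With a replicate block 6848 genes were called, 8 pathway genes higher and 14 lower, with PFKFB2 and SLC16A1 added (edgeR adjusted p = 0.0366 and 0.0336). Low counts limit SLC2A3, PFKP, PKLR, PDK4 and FBP1, and with 3 libraries a group the exact test of a ratio cannot pass 0.05.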
